A study of Mus musculus with 10 samples.

Results

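Endothelial cells line the blood and lymph vessels of the testis, which run in the interstitial tissue between the seminiferous tubules. The 10 genes examined here mark these cells on arrays of mouse testis: the junction and adhesion genes Pecam1, Cdh5 and Esam, the clotting factor carrier Vwf, the VEGF receptor genes Kdr and Flt1, the angiopoietin receptor gene Tek and its relative Tie1, the TGF-beta co-receptor gene Eng and the transcription factor gene Sox18. They were chosen by name, through array probe sets whose platform annotation lists 1 of the 10 genes and no other. All 10 genes were on the array, with 14 of its 22690 probe sets, among 12393 genes named by single-gene probe sets. Probe sets read mRNA with short oligonucleotides, and a signal from one probe set cannot be set against that of another gene.

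The series compared whole testes of mice at 10 days of age. Mice labelled SCARKO lack the androgen response of Sertoli cells selectively, and control mice carried AMHCre, a Cre recombinase driven by the promoter of the anti-Müllerian hormone gene, which is active in Sertoli cells. Each of the 10 arrays held RNA pooled from 1 testis of each of 3 mice, with 5 pools per group, and, per the protocol text that accompanies 8 arrays, SCARKO pools were matched to control pools of their littermates. For pair 5 the match rests on the shared number in the titles. The labels used here name no strain and no further allele. Groups and pair numbers follow the sample titles. The sample descriptions contradict the titles for pairs 1 to 4, where they swap the genotypes, but not for pair 5, so every direction below rests on the titles. Among markers that define testis tissue, all 14 Sertoli, 11 germ and 6 Leydig cell genes of the marker lists that were on the array were above the filter on dim signals. That filter took the mean over both groups, so a gene could pass without a bright signal in each. The Sertoli cell gene Rhox5, at 7.9 to 12.7 in SCARKO pools, passed through its control pools.

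As background, VEGF ligands made by tubule and interstitial cells act on KDR, the main growth and survival receptor of endothelial cells, while FLT1 binds VEGF-A tightly and limits its supply. Angiopoietins act on TEK to keep vessels stable, and VE-cadherin, the product of Cdh5, holds neighbouring endothelial cells together. Endothelial cells are not the cells in which SCARKO mice are altered, and the comparison asks whether their transcripts differ when Sertoli cells do not respond to androgen.

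No endothelial marker passed the test between SCARKO and control testes. Of the 10 genes, 7 had a probe set above the filter on dim signals, and limma called 0 of these 7. Only Sox18 had an unadjusted p below 0.05. A gene was called at a Benjamini-Hochberg adjusted p under 0.05 over all 13576 kept probe sets. Across all 7973 genes tested, limma called 454 (5.69%), with 2.17% higher and 3.52% lower in SCARKO, and 21.7% had an unadjusted p below 0.05. By probe set the share called was 5.19%. At such shares a list of 7 holds few calls or none, so the count of 0 is not a result about endothelial genes. The filter used the mean over all 10 arrays, and it left out probe sets under a mean log2 signal of 4.27, a signal of 19.3. Fold changes of the 7 genes lay between -0.19 (Cdh5) and 0.19 (Sox18) on the log2 scale, with a median of -0.048 against 0.016 for all genes tested. In whole testis RNA, fewer endothelial cells and less mRNA per cell cannot be told apart.

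**Figure D1:**
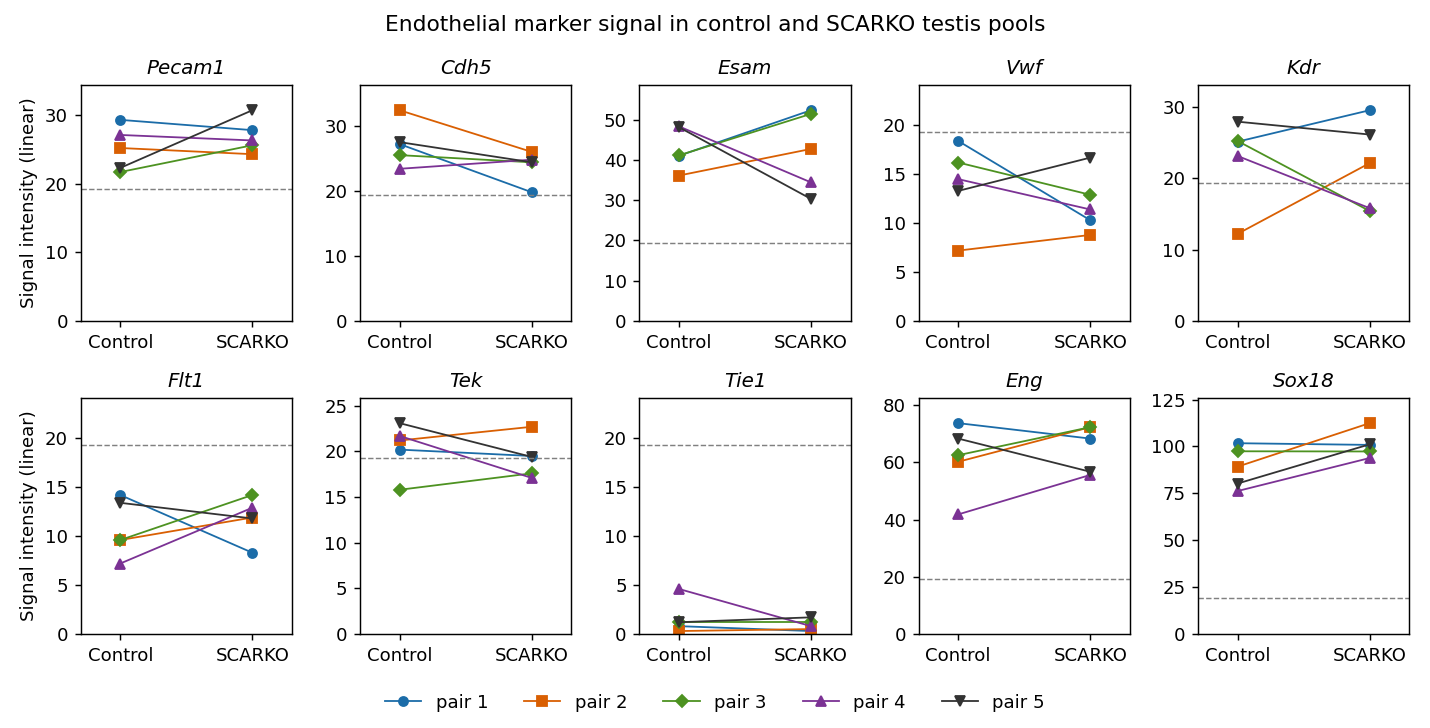
Signal intensity on a linear scale (y axis, from 0) of the brightest probe set of each of the 10 markers in control and SCARKO pools (x axis), with a line for each littermate pair and a dashed line at the dim signal of 19.3. Control and SCARKO points overlap in every panel, and Vwf, Flt1 and Tie1 lie under the dashed line in all 10 pools.

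Of the arrays as a whole, the mean signal after trimming 2% of values at each end was 100 on each of the 10, and the median signal ranged from 36.4 to 37.6. The 3′ to 5′ signal ratio of the Gapdh control was 0.611 to 0.64 in control and 0.618 to 0.657 in SCARKO pools. Rhox5, an androgen-dependent gene of Sertoli cells, fell by 4.17 on the log2 scale in SCARKO pools (limma adjusted p = 6.07e-06). A change of that size does not show whether the fit could call changes as small as those of the markers. By the titles, Rhox5 gave 86.6 to 241.4 in control and 7.9 to 12.7 in SCARKO pools. Pair 5, whose titles and descriptions agree, gave 212.1 and 9.7, the same direction as pairs 1 to 4 by their titles. By the descriptions, pairs 1 to 4 would run opposite to pair 5. With 5 pairs, and with pools rather than single mice, the spread described here is between pools of littermates.

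Pecam1 encodes PECAM-1 (CD31), an adhesion molecule of endothelial cells that platelets and leukocytes also carry. Its signal in pairs 1 to 5 was 29.3, 25.2, 21.7, 27.1 and 22.3 in control pools and 27.8, 24.3, 25.6, 26.3 and 30.7 in SCARKO pools. The groups overlapped, with the SCARKO pool of pair 5 highest of all and the control pool of pair 3 lowest. Means were 25.1 ± 3.20 and 26.9 ± 2.45 (SD, n = 5), and SCARKO was higher in 2 of 5 pairs. The log2 fold change was 0.11 (SE 0.12), with a 95% confidence interval from -0.16 to 0.37 and a limma adjusted p of 0.669.

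Cdh5 had the most negative log2 fold change among the 7 genes. Its brighter probe set gave 27.2, 32.4, 25.5, 23.4 and 27.5 in the control pools of pairs 1 to 5 and 19.8, 26, 24.4, 24.8 and 24.4 in the SCARKO pools. SCARKO was lower in 4 of 5 pairs, with pair 4 the exception, and the groups overlapped between 23.4 and 26. Means were 27.2 ± 3.33 and 23.9 ± 2.37 (SD, n = 5), and the log2 fold change was -0.19 (SE 0.12, limma adjusted p = 0.411). The interval, -0.45 to 0.074, allows a level from 0.734 to 1.05 times that of controls. The second Cdh5 probe set lay between 2.8 and 10.5 on all arrays, under the dim signal, and was higher in SCARKO in 3 of 5 pairs.

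Esam, the third junction gene, encodes an immunoglobulin-type adhesion molecule of endothelial tight junctions and platelets. Control pools of pairs 1 to 5 gave 41, 36.1, 41.1, 48.3 and 48.1, and SCARKO pools gave 52.3, 42.7, 51.4, 34.4 and 30.3. SCARKO was higher in pairs 1, 2 and 3 and lower in pairs 4 and 5. The pair differences of 0.35, 0.24, 0.32, -0.49 and -0.67 on the log2 scale averaged to -0.048 (SE 0.15, limma adjusted p = 0.896). The coefficient of variation, the SD as a percentage of the mean, was 12.2% in control and 23.4% in SCARKO pools.

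Kdr varied most between pools among the 7 genes. Its signal was 25.1, 12.2, 25.2, 23.1 and 27.9 in the control pools of pairs 1 to 5 and 29.5, 22.1, 15.4, 15.8 and 26.1 in the SCARKO pools. The control pool of pair 2 and the SCARKO pools of pairs 3 and 4 lay under the dim signal of 19.3, and the remaining 7 arrays lay above it. Means were 22.7 ± 6.11 and 21.8 ± 6.22 (SD, n = 5), and the log2 fold change was -0.053 (SE 0.20, limma adjusted p = 0.914). Its interval was the widest of the 7, from -0.50 to 0.39, which allows a level from 0.709 to 1.31 times that of controls. Without pair 3 the log2 fold change was 0.11 and without pair 4 it was 0.071, so its sign rested on these pairs.

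Flt1 was dim on all 10 arrays in each of its 3 probe sets. The brightest gave 7.2 to 14.2 in control pools and 8.3 to 14.2 in SCARKO pools, and the other two gave 5.9 to 9.6 and 6 to 13.9 in control pools. Without the filter on dim signals, log2 fold changes of the 3 probe sets were 0.15, 0.11 and -0.18, with limma adjusted p of 0.84, 0.884 and 0.823. Their intervals reached from -0.91 to 0.80, wider than those of any kept marker. Without the filter, limma called 38 of 22626 probe sets (0.168%).

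Tek, which encodes the angiopoietin receptor TIE2, had control signals of 20.2, 21.2, 15.8, 21.7 and 23.1 in pairs 1 to 5 and SCARKO signals of 19.5, 22.7, 17.6, 17.1 and 19.4. These values straddled the dim signal, with 3 of 10 under it, and the groups overlapped. The log2 fold change was -0.078 (SE 0.13, limma adjusted p = 0.786), lower in 3 of 5 pairs, with an interval from -0.37 to 0.21. Tie1, an orphan relative that modulates TEK signalling, gave 0.8, 0.3, 1.2, 4.6 and 1.2 in control pools and 0.3, 0.5, 1.2, 0.8 and 1.7 in SCARKO pools. Since 5 of these 10 values were under 1, where values were set to 1 before log2, no fold change is given for Tie1.

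Eng encodes endoglin, which presents BMP9 and BMP10 to the endothelial receptor ALK1. Its brighter probe set gave 73.7, 60.2, 62.5, 41.8 and 68.3 in the control pools of pairs 1 to 5 and 68.3, 72.3, 72.3, 55.6 and 56.7 in the SCARKO pools. SCARKO was higher in pairs 2, 3 and 4, and the groups overlapped over most of their range. The log2 fold change was 0.10 (SE 0.10, limma adjusted p = 0.621), with an interval from -0.12 to 0.33. The second Eng probe set gave 27.4, 20.1, 20.2, 18.6 and 20.1 in control pools and 28.9, 22.1, 23.1, 21.9 and 23.7 in SCARKO pools. It was higher in SCARKO in 5 of 5 pairs, by 0.077 to 0.24 on the log2 scale, but its mean of 0.18 (SE 0.11) did not pass (limma adjusted p = 0.41). Among all genes, 19.7% had the same direction in all 5 pairs, and none of the 7 markers did by its brightest probe set.

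Sox18, a SOXF transcription factor needed for lymphatic and vascular development, had the smallest p of the 7. Its signal was 101.7, 89.2, 97.4, 76.2 and 80.2 in the control pools of pairs 1 to 5 and 100.8, 112.4, 97.3, 93.8 and 101.1 in the SCARKO pools. Pairs 2, 4 and 5 were higher in SCARKO by 0.33, 0.30 and 0.33 on the log2 scale, while pairs 1 and 3 differed by -0.013 and -0.0015. Means were 88.9 ± 10.9 and 101.1 ± 6.99 (SD, n = 5). The log2 fold change was 0.19 (SE 0.077), a 1.14-fold higher level, with an interval from 0.022 to 0.36 and a limma p of 0.0303, or 0.184 after adjustment. It therefore did not pass.

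Vwf, which carries clotting factor VIII and is stored in endothelial cells and platelets, was dim throughout. Control pools of pairs 1 to 5 gave 18.4, 7.2, 16.2, 14.5 and 13.3 and SCARKO pools gave 10.3, 8.8, 12.9, 11.4 and 16.7. All 10 values lay under 19.3 and the groups overlapped, with pair 2 low in both groups. Without the filter the log2 fold change was -0.18 (limma adjusted p = 0.748), with an interval from -0.70 to 0.34.

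**Figure D2:**
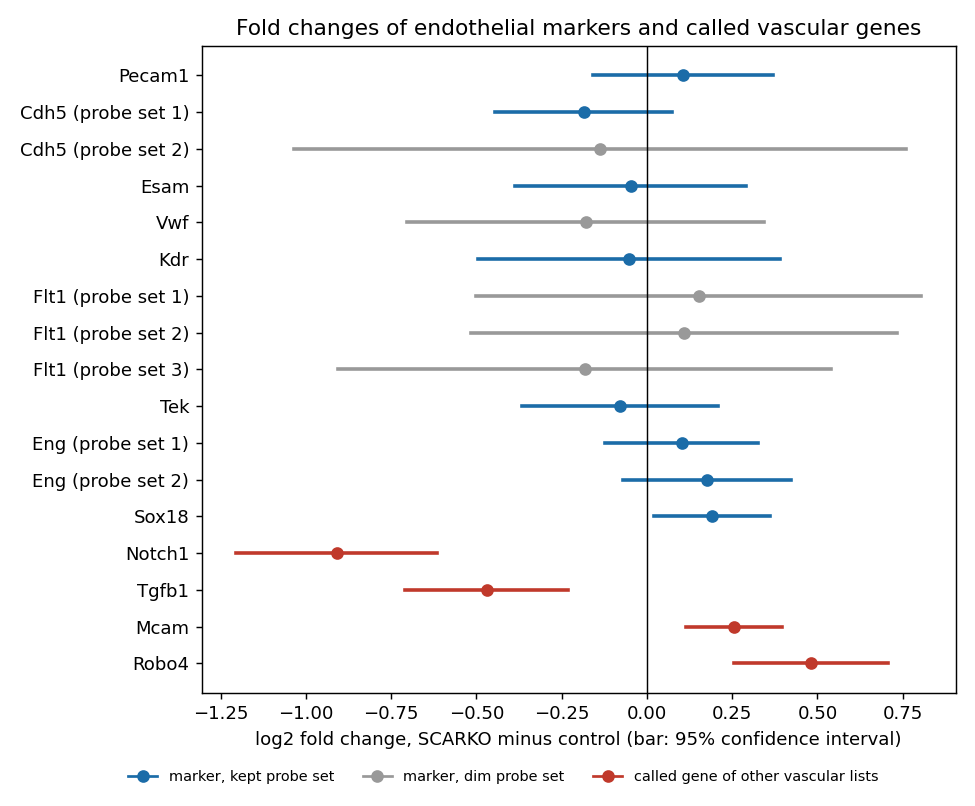
Log2 fold change, SCARKO minus control (x axis), with its 95% confidence interval for every marker probe set but that of Tie1 and for the 4 called genes of the other vascular lists, 5 pairs. Intervals of the markers cross 0 except that of Sox18 (0.022 to 0.36), and dim probe sets, shown in grey from the fit without a filter, have the widest intervals.

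For the kept markers the standard error lay between 0.077 (Sox18) and 0.20 (Kdr), against a median of 0.072 over all genes. Among genes within the markers' range of mean log2 signal, the smallest absolute log2 fold change that was called was 0.267. A change of that size, in at least one direction, lies inside the interval of each of the 7 markers, so these data do not show that the markers were unchanged. A 2-fold change in either direction lies outside the intervals of all 7.

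The markers did not move together from pair to pair. In pair 2, 5 of 7 were higher in SCARKO (median difference 0.24 on the log2 scale), in pair 3 it was 4 of 7 (0.16), in pair 4 it was 3 of 7 (-0.043), and in pairs 1 and 5 it was 2 of 7 (-0.051 and -0.17). The median difference of all genes lay between 0.0067 and 0.027 in every pair. Single markers took opposite signs between pairs, with Kdr at 0.86 in pair 2 and -0.71 in pair 3, and Esam at 0.35 in pair 1 and -0.67 in pair 5. The summed signal of the 7 probe sets was 261.6 to 318.2 in control and 267.8 to 322.5 in SCARKO pools. Bright probe sets weigh most in such sums, here and for the lists below, and among the markers these were Sox18 and Eng.

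**Figure D3:**
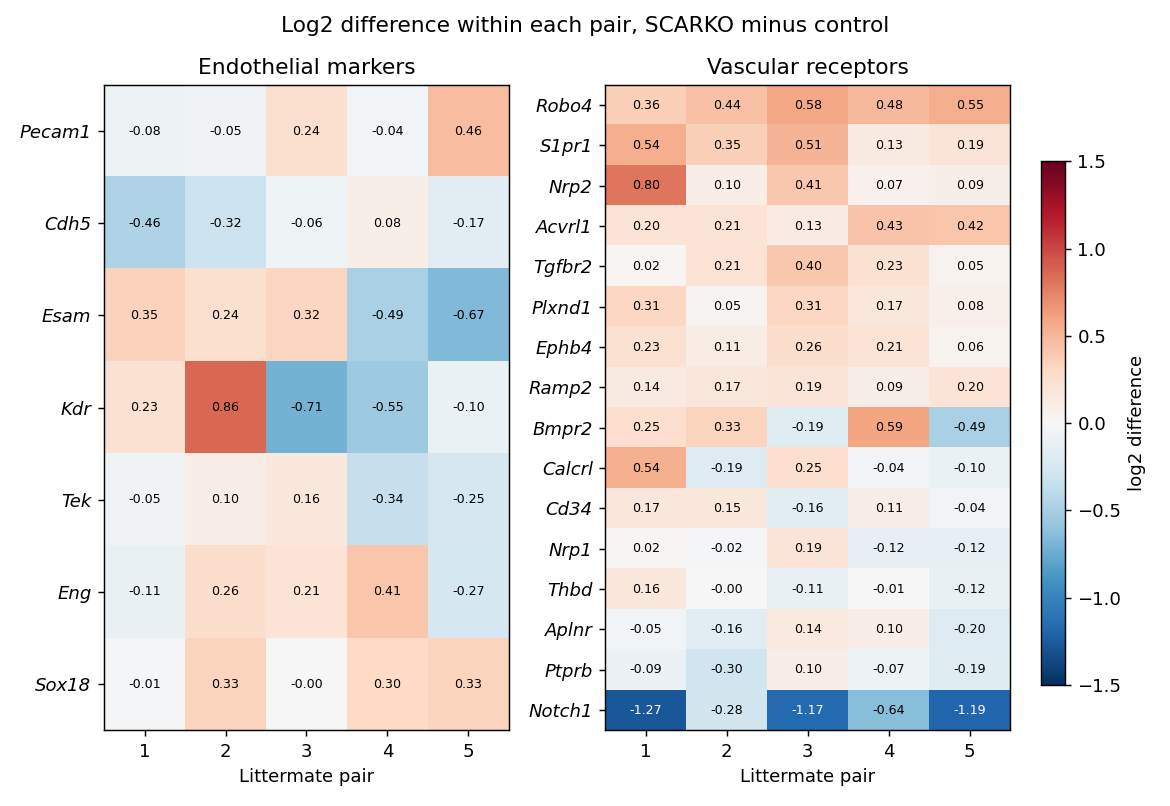
Log2 difference, SCARKO minus control, within each littermate pair (columns) for the 7 kept endothelial markers (left) and the 16 kept vascular receptor genes (right), coloured from blue (lower in SCARKO) to red (higher), with the value in each cell. No marker row has a single sign in all 5 pairs, while 8 receptor rows are positive in every pair and the Notch1 row is negative in every pair.

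Over the 10 arrays, Pearson's r between the log2 signals of 2 markers ranged from -0.527 (Cdh5 and Kdr) to 0.635 (Eng and Sox18) over 21 gene pairs, with a median of 0.0691 against 0.0046 for all pairs of genes tested. Eng and Sox18 were the only pair above 0.5. These values are a description, since the 10 arrays share litters and 5 of them share the SCARKO genotype. The genes whose log2 profile over the 10 arrays was most like the mean standardized profile of the 7 markers were Steap4 (r = 0.933), H2az1 (0.923), Cd93 (0.919), Rps4x (0.895) and Golm1 (0.874), out of 7966 searched. A search of that size yields high values in any case. Cd93 encodes a lectin-like surface receptor of endothelial and myeloid cells and was on the list of endothelial surface genes below.

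Promoter sequences from RefSeq (GRCm38.p6) were held for 5 of the 10 markers, Eng, Flt1, Kdr, Tek and Tie1. The 250 bases before the start site are shown for Eng and Tie1, whose windows both hold the ETS motif GGAAGT that 4 of the 5 share. Capitals mark GGAAGT or its reverse complement ACTTCC, a form of the site that ETS factors such as ERG and FLI1 bind, here on the strand opposite to the gene in both. Other forms of the ETS site were not searched.
Eng, chr2:32646345-32646594, plus strand: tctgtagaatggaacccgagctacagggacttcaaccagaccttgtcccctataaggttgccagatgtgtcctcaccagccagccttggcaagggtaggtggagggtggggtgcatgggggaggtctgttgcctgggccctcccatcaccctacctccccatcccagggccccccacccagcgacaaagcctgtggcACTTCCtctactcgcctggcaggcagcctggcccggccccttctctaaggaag
Tie1, chr4:118489850-118490099, minus strand: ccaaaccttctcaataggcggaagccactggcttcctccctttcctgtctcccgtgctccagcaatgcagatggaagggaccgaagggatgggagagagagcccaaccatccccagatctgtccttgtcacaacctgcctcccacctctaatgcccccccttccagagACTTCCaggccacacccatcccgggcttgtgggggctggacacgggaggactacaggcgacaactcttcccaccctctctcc
On either strand, GGAAGT was found in 4 of the 5 marker windows (Eng, Flt1, Kdr and Tie1), against 19.7% of 32851 windows of the same length. The SOX motif AACAAT was found in Tek alone (9.42% of all windows), TATAAA in Flt1 alone (12.4%) and the GATA motif AGATAA in none (9.99%). The motifs do not overlap in these windows. A match is a description of the letters alone.

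Other genes of the vascular system were taken from 4 lists of ligands, receptors, transcription factors and surface or junction genes. Of 57 genes measured above the dim signal, 4 were called (7.02%, against 5.69% of all genes), Robo4 and Mcam higher and Notch1 and Tgfb1 lower in SCARKO. The median log2 fold change of the 57 was 0.0775, and 36 were positive and 21 negative, against a median of 0.016 and 55% positive over all genes.

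The receptors held most of the genes with one direction in every pair. Of 16 measured, 8 were higher and 1 lower in SCARKO in all 5 pairs, against 11% and 8.78% of all genes. Limma called 1 higher and 1 lower, against 2.17% and 3.52% of all genes. The median log2 fold change of the 16 was 0.128, and 7 reached an unadjusted p below 0.05, against 21.7% of all genes. The list was chosen with earlier results of these data known, and no test was made over its genes. Robo4 encodes an endothelial receptor that stabilizes vessels. Its signal was 24.8, 26.1, 25.3, 18.4 and 22.6 in the control pools of pairs 1 to 5 and 31.9, 35.4, 37.8, 25.7 and 33 in the SCARKO pools. Every SCARKO pool was above its own littermate control, and only the SCARKO pool of pair 4 lay under the highest control. Robo4 rose by 0.48 on the log2 scale (SE 0.10, limma adjusted p = 0.0209), from 23.4 ± 3.10 to 32.8 ± 4.56 (SD, n = 5). The call was lost when pair 3, 4 or 5 was left out (adjusted p = 0.0527 to 0.089), and when the replicate block was dropped (0.0722).

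Notch1 encodes a receptor used by endothelial cells and by other cells of the testis. Its brighter probe set fell by 0.91 on the log2 scale (SE 0.13, limma adjusted p = 0.00342), from 83.2 ± 16.3 to 44.1 ± 8.55 (SD, n = 5). Control pools of pairs 1 to 5 gave 92.2, 54.8, 93.6, 91 and 84.5 and SCARKO pools gave 38.3, 45.1, 41.7, 58.3 and 37. The groups overlapped through the low control of pair 2 and the high SCARKO pool of pair 4. The other Notch1 probe set had a log2 fold change of -0.14 (adjusted p = 0.594), and the mean of both probe sets gave -0.53 (adjusted p = 0.015). The Notch1 call held whichever pair was left out (limma adjusted p = 0.000509 to 0.0202). It also held without the replicate block (0.00497) and without the intensity trend (0.0311). Without the filter on dim signals the calls of Notch1 (adjusted p = 0.104), Robo4 (0.0824), Tgfb1 (0.154) and Mcam (0.12) were lost. That fit called only 38 of 22626 probe sets (0.168%).

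Further receptors did not pass. S1pr1, the receptor for the barrier-stabilizing lipid sphingosine 1-phosphate, had a log2 fold change of 0.35 (limma adjusted p = 0.139). Acvrl1, which encodes ALK1, the signalling partner of endoglin, had 0.28 (adjusted p = 0.153), with 24 to 30 in control and 30 to 35.3 in SCARKO pools, the highest control equal to the lowest SCARKO value. Nrp2, a VEGF-C co-receptor named after its values were seen, had groups that did not overlap (19 to 22.1 against 23.1 to 34.3), although its log2 fold change of 0.29 did not pass (adjusted p = 0.255). Groups did not overlap for 2 of the 57 vascular genes, Nrp2 and Klf4, against 5.26% of all genes.

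Of 7 ligands measured, 1 fell and none rose, against 3.52% lower and 2.17% higher among all genes, a count too small to describe ligands as a group. Tgfb1, which encodes the growth factor TGF-beta 1, fell by 0.47 on the log2 scale (SE 0.11, limma adjusted p = 0.0308). Its signal was 59.9, 31.5, 52.3, 50.6 and 53.2 in the control pools and 35, 28, 42.6, 38.4 and 32.5 in the SCARKO pools of pairs 1 to 5. Each SCARKO pool was below its littermate control, and the control of pair 2 lay among the SCARKO pools. The call was lost when pair 1, 3, 4 or 5 was left out (adjusted p = 0.0671 to 0.12), and when the replicate block was dropped (0.161). Vegfb had a log2 fold change of 0.20 (adjusted p = 0.526) and Jag1, a Notch ligand, 0.14 (adjusted p = 0.729).

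Of 14 transcription factor genes, limma called 0, against 5.69% of all genes, and 3 reached an unadjusted p below 0.05, near the 21.7% of all genes that did. Log2 fold changes were positive in 11 of the 14, against 55% of all genes. Klf4, a shear stress response factor also found outside vessels, had 0.28 (adjusted p = 0.0653), with control pools from 139.9 to 209.5 and SCARKO pools from 214.1 to 232.6. Mef2c had 0.31 (adjusted p = 0.0828) and Ets1, an ETS factor of endothelial cells and lymphocytes, had 0.20 (adjusted p = 0.115).

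Of 20 surface and junction genes, 1 rose and none fell, close to the 5.69% of all genes called. Mcam, which encodes the adhesion molecule CD146 of endothelial cells, pericytes and smooth muscle, rose by 0.26 on the log2 scale (SE 0.064, limma adjusted p = 0.044). Its signal was 108.9, 99.3, 122.3, 90 and 102.4 in control pools and 125.1, 112.7, 134.8, 119.2 and 130.5 in SCARKO pools, with SCARKO higher in each pair. The call was lost whichever pair was left out (adjusted p = 0.056 to 0.157), and when the replicate block was dropped (0.143). Crip2 had a log2 fold change of 0.19 (adjusted p = 0.106) and Gja4, the arterial connexin 37 gene, had -0.28 (adjusted p = 0.246).

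Cells that share some of these markers were read from separate lists. Mural cells, which wrap small vessels, had 6 measured genes with a median log2 fold change of 0.103. Mcam, shared with the surface list, was the 1 called, against 5.69% of all genes, a count too small to describe the list. In all 5 pairs 2 of the 6 were higher in SCARKO, against 11% of all genes. Cspg4 had 0.25 (adjusted p = 0.293) and Notch3 0.15 (adjusted p = 0.497). The summed signal of the 11 mural genes on the array was 401.8 to 457.8 in control and 398.7 to 482.3 in SCARKO pools. Of 11 leukocyte and macrophage genes, limma called 0, while C1qa (log2 fold change 0.17) and C1qc (0.25) were the 2 that reached an unadjusted p below 0.05, against 5.69% and 21.7% of all genes, and Lyz2 had 0.12. The list's summed signal was 566.7 to 744.5 against 621.9 to 753.8. Of 10 smooth muscle and peritubular myoid genes, limma called 0 and 2 reached an unadjusted p below 0.05, against 5.69% and 21.7% of all genes. These 2 were Mylk (-0.17, adjusted p = 0.0914, lower in 5 of 5 pairs) and Tpm2 (-0.13, adjusted p = 0.193). The 10 genes had a median log2 fold change of -0.079, with 3 positive and 7 negative, against 55% positive over all genes. The summed signal of the 11 on the array was 4099 to 4546 in control and 3722 to 4278 in SCARKO pools. Of the platelet genes, Pf4 (0.062) and Itga2b (0.0056) were measured and neither passed, with a summed signal of 155.9 to 163.3 against 151.2 to 177.1. No erythroid gene reached the dim signal. None of these 5 lists had a marker with a median signal under 1, and their part in the endothelial values was not tested.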

How the data were processed

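The authors deposited an intensity for each probe set and array, the Affymetrix signal before any log. MAS5 is named in the submitters' processing notes for 8 arrays and no tool for the 2 arrays of pair 5, and the version is not given in the sources read for this work. Array control probe sets (64) were left out. Gene symbols of the platform annotation were brought up to GRCm38.p6 by gene identifier, and 29 probe sets kept their older symbol.

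Intensities below 1 were raised to 1 before taking log2. The dimmest 40% of probe sets, by their mean over the 10 arrays, were left out. The rest entered limma 3.58.1 (R 4.3.3) with a block for the pair, an intensity trend, two-sided tests and Benjamini-Hochberg adjustment. The script was tested on simulated data with planted changes larger than the fold changes of the kept markers, so it does not cover changes of their size. Each gene is represented by its brightest kept probe set. Intensities have no counting depth, so the 5 arrays per group limit the precision.

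The protocol text, given for 8 of the arrays, describes littermate pools as pairs. Same-numbered pools deviated together from their group means, with correlations of 0.275, 0.186, 0.19, 0.109 and 0.386 in the order of the pair numbers. Against differently numbered pools the highest values were -0.0081, 0.078, 0.109, 0.109 and 0.010, so pair 4 did not stand out by this check.

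The members and gene lists were chosen with earlier results of these data known. Genes named are the 10 markers, the called genes and up to 3 genes of smallest p of each vascular and related list, the 5 genes of most similar profile, and, after their values were seen, Nrp2 and Rhox5. No value of the targeted gene was used to check the groups.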

Additional observations from a re-analysis of the deposited data

Results flagged for a closer look

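Of 52 groups of 5 pools examined over 26 probe sets, 10 held a pool that stood apart from the rest of its group. For normally distributed values about 1 in 20 groups would do so. The probe sets included genes named for a small p, and the share over all genes was not computed, so an excess was not shown. For the markers, these were the SCARKO pool of pair 1 for Cdh5 (19.8, next 24.4), the control pool of pair 2 for Kdr (12.2, next 23.1) and the control pool of pair 4 for Tie1 (4.6, next 1.2). For the dimmer Eng probe set, both pools of pair 1 stood above their groups (27.4, next 20.2 in control, and 28.9, next 23.7 in SCARKO). Among the other vascular genes, the control pool of pair 2 was low for Tgfb1 (31.5, next 50.6) and Notch1 (54.8, next 84.5), and the control pool of pair 5 was low for S1pr1 (15.4, next 19.2). The SCARKO pool of pair 4 was low for Mef2c (102.3, next 140.6) and that of pair 5 high for Ets1 (143.8, next 121.3).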

How the results depend on the processing

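Limma called 0 of the measured endothelial markers under every alternative run. The median log2 fold change of the markers ranged from -0.12 to 0.072 when 1 pair was left out, and was 0.19 with the lowest 60% of probe sets left out, when Sox18 was the only marker measured. The count of called probe sets, 704 with all settings as described, was 404 with no replicate block, 38 without the filter, 321 without the intensity trend, 0 with groups from the descriptions, and 304 to 743 when 1 pair was left out. Among the markers, Kdr ranged from -0.28 to 0.11 in the fits that left out 1 pair. It turned to 0.11 without pair 3 and 0.071 without pair 4. Esam ranged from -0.15 to 0.11 in the same fits, and turned to 0.062 without pair 4 and 0.11 without pair 5. Its lowest value over all alternatives was -0.22, with groups from the descriptions. With groups from the descriptions, log2 fold changes turned for Cdh5 (0.12), Kdr (0.014), Eng (-0.21), Sox18 (-0.057), Mcam (-0.12), Notch1 (0.43), Robo4 (-0.26) and Tgfb1 (0.19), with none called. Pecam1 and Tek each kept their sign in the 12 alternatives that gave them a value, but Pecam1 shrank from 0.11 to 0.017 without pair 5 and Tek from -0.078 to -0.012 without pair 4. The 4 calls among the vascular list genes, whose alternatives were chosen after the data were seen, became 1 with no replicate block, 2 without the trend, 0 without the filter and 1 to 4 when 1 pair was left out. The count was 1 of 22 genes with the lowest 60% of probe sets left out, and 5 of 48 with the mean of all probe sets of a gene. The cause of these changes was not tested. Signals near the dim signal limit Tek, Kdr, Cdh5 and Pecam1.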
